A study of Mus musculus with 14 samples.

Results

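Fatty acids are the main fuel of the adult heart, and the 39 genes described here encode the proteins that bring them into the cardiomyocyte, activate them, carry them into mitochondria, break them down and store the surplus. They are a list of gene symbols drawn up by function with earlier results of these data known, and all 39 had a row among the 51912 genes of the count tables. All 39 passed the filter on low counts that left 15651 genes tested. The genes were grouped by step: 5 for uptake, 6 for activation, 7 for the carnitine shuttle, 16 for beta-oxidation and 5 for lipid storage.

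The hearts came from C57BL/6J mice, either wild type or labelled as knockouts of Clk3, a CDC-like kinase that phosphorylates splicing factors. They had undergone sham surgery or TAC, taken here as transverse aortic constriction, an operation that narrows the aorta and loads the left ventricle with pressure. Poly(A)-selected RNA was sequenced in 14 libraries: wild-type sham (4 libraries, of which libraries 1 and 2 are from mice of 11 weeks and libraries 3 and 4 from mice of 10 weeks), knockout sham (4, with the same ages), wild-type TAC (2, both 10 weeks) and knockout TAC (4, all 10 weeks). How long TAC lasted, the sex of the mice and how the Clk3 allele was made are not in the labels. Whether libraries of a group come from separate animals is not stated either, so the spread behind each p-value may be partly technical. Gene counts per library ranged from 11385818 to 20369637, and every cardiomyocyte marker examined (10 of 10, such as Myh6 and Tnnt2) was abundant in every library.

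Long-chain fatty acids are freed from lipoproteins at the capillary wall, cross the cell membrane with the help of carrier proteins, and are bound to coenzyme A. The carnitine shuttle then moves them into the mitochondrial matrix, where each turn of beta-oxidation shortens the chain and passes electrons to the respiratory chain. Surplus fatty acid is kept as triglyceride in lipid droplets. Lower expression of these genes is a textbook feature of hearts under lasting pressure load.

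One library stood apart from its label. Clk3 itself was at 73.2 to 96.0 CPM (counts relative to the library size after TMM scaling) in wild-type sham, 62.8 to 67.4 in knockout sham and 50.7 to 64.9 in knockout TAC. The library labelled wild-type TAC 1 held 54.2 CPM and the library labelled wild-type TAC 2 held 92.3. Gm8730, a pseudogene at 57.4 to 67.1 CPM in all 8 knockout libraries and at 1.26 to 1.63 in the other 5 wild-type libraries, reached 66.8 CPM in that same library labelled wild-type TAC 1. Values without that library are therefore given beside the wild-type TAC results. They rest on 1 wild-type TAC library, assumed to vary like the other groups. Nppa did not set that library apart. It was at 1912 CPM there, 1808 in wild-type TAC 2 and 639 to 1119 in knockout TAC. Which genotype the library carries was not tested.

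In wild-type hearts, 17 of the 39 genes fell after TAC and none rose (edgeR quasi-likelihood test with Benjamini-Hochberg adjustment over all genes, threshold 0.05). Of all genes tested, 5.3% were called lower and 6.91% higher. The estimates were below 0 for 36 of the 39, with a median log2 fold change of -0.38, against -0.0023 over all genes tested. Most falls were modest: the called genes other than Slc27a1 and Acot1 lay between -0.69 and -0.31 on the log2 scale. For 26 genes both TAC libraries lay below all 4 sham libraries, an arrangement seen in 14.2% of all genes tested. Without the library labelled wild-type TAC 1, 5 genes were called (Acot1, Slc25a20, Hadh, Acaa2 and Dgat2), the median was -0.29 and 1.18% of the genes then tested were called lower.

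In knockout hearts, 8 of the 39 genes fell and none rose, against 6.26% of all genes called lower and 6.73% called higher. The median log2 fold change was -0.20, against -0.0053 over all genes tested, and 34 of 39 estimates were below 0. In 14 genes the 4 TAC libraries lay below the 4 sham libraries, as they did in 11.2% of all genes. Of the 17 genes called in wild type and the 8 called in knockout, 7 were called in both: Slc27a1, Acot1, Hadha, Hadh, Acaa2, Decr1 and Etfdh. Hadhb passed the threshold in knockout and not in wild type, with estimates of -0.27 and -0.28.

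The knockout calls depend on how age is treated. All TAC libraries are from mice of 10 weeks, and with age as a covariate 0 of the 39 genes were called in knockout (1.63% of all genes were then called lower) and 14 in wild type (3.25% called lower). The median in knockout with that covariate was -0.16. That covariate holds the age effect equal in both genotypes. In the 10-week libraries alone, the median over the 39 genes was -0.11 in knockout and -0.40 in wild type. Of 14 clock genes, 6 were called lower and 1 higher after TAC in wild type (1 lower and 0 higher without the library labelled wild-type TAC 1), and 4 lower and 0 higher in knockout. Arntl, a core activator of the circadian clock, was at 4.40 to 9.38 CPM in sham hearts other than knockout sham 4 (24.3) and at 18.2 to 23.7 after TAC other than in knockout TAC 3 (9.02). With a score of these clock genes as a covariate, 5 genes were called in wild type (0.869% of all genes called lower) and 0 in knockout (0.185%). The median over the 39 genes was then -0.32 in wild type and -0.16 in knockout, with 35 and 36 estimates below 0. The score nearly followed surgery, at -3.16 to -1.74 in wild-type sham and 3.35 and 3.46 in wild-type TAC. Knockout sham 4 (2.67) and knockout TAC 3 (-1.10) stood apart from their groups. The score therefore overlaps with surgery, and the 2 cannot be told apart in wild type. Time of day is not given in the labels, and its part in these results was not tested.

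**Figure D1:**
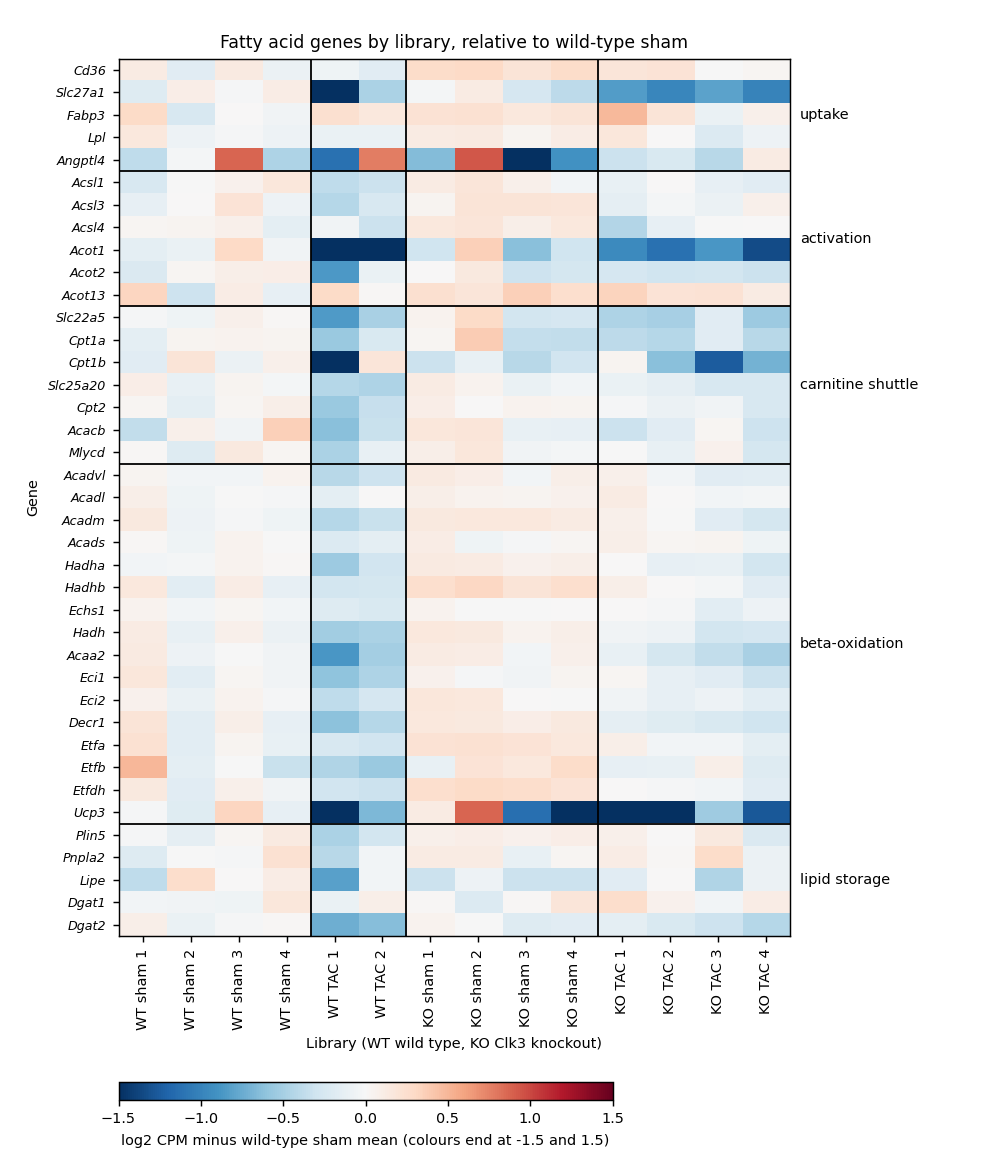
Level of each of the 39 genes (rows, by step) in each of the 14 libraries (columns), as log2 CPM minus the mean of wild-type sham; blue is lower and red higher, and colours end at -1.5 and 1.5. The 2 wild-type TAC columns are blue in most rows of the shuttle and beta-oxidation blocks, while knockout sham 1 and 2 lie above knockout sham 3 and 4 in Ucp3.

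Averaged over the 39 genes, log2 CPM relative to wild-type sham was -0.43 ± 0.23 for wild-type TAC (SD, n = 2), -0.19 ± 0.057 for knockout TAC (n = 4) and 0.018 ± 0.12 for knockout sham (n = 4). The library labelled wild-type TAC 1 was at -0.59 and wild-type TAC 2 at -0.27, the latter close to the lowest knockout TAC library (-0.26). Wild-type hearts devoted 2.27% ± 0.080 of gene counts to the 39 genes after sham (SD, n = 4) and 1.84% ± 0.096 after TAC (n = 2), with 1.77% in library 1 and 1.91% in library 2. Knockout hearts devoted 2.37% ± 0.074 and 2.10% ± 0.081 (n = 4 each). Bulk RNA cannot tell fewer cardiomyocytes from less of this RNA per cardiomyocyte. The summed level of the 10 cardiomyocyte markers was 42948 to 49011 CPM in wild-type sham and 40002 to 46457 in wild-type TAC, with 1 of 10 called lower, and 47568 to 51754 and 40411 to 52206 in knockout, with 2 of 10 called lower. That of 10 fibroblast markers was 2616 to 3290 CPM in wild-type sham and 4076 to 4681 in wild-type TAC (4 of 10 higher), and 2331 to 2736 and 2879 to 3266 in knockout (3 of 10 higher). The estimates of 3 of these 10 were below 0 in wild type and of 1 in knockout. Without the library labelled wild-type TAC 1, Col1a1, Col1a2 and Col3a1 were at 1.55, 1.32 and 1.40 in wild type. Gsn, Tcf21 and Ddr2 were then at -0.28, -0.21 and -0.043, and the median of the 10 was 0.23. For 10 macrophage markers the sum was 374 to 383 and 481 to 605 CPM in wild type (6 of 10 higher), and 269.9 to 375 and 396 to 501 in knockout (7 of 10 higher). With the library labelled wild-type TAC 1 left out, the wild-type median was -0.0088 for the cardiomyocyte markers and 0.31 for the macrophage markers. Of these estimates, 5 of 10 for cardiomyocytes and 0 of 10 for macrophages were below 0. Fat cells also express many of the listed genes, and 7 white adipocyte markers summed to between 0 and 14.8 CPM per library and to at most 3.85 after TAC. The 5 brown adipocyte markers summed to 28.7 to 38.4 CPM in wild-type sham and 59.3 to 85.4 in wild-type TAC (1 of 2 tested called higher), and to 29.6 to 32.3 and 37.2 to 45.6 in knockout (2 of 2 higher). Nearly all of that sum was Cidea, a lipid droplet protein, at 27.0 to 39.8 CPM per library, and Dio2, the deiodinase that activates thyroid hormone, at 1.59 to 3.83 CPM in wild-type sham and 45.8 and 19.5 in wild-type TAC. Ucp1, which defines brown fat, was at most 0.0923 CPM, and Elovl3 and Zic1 had at most 2 counts in any library. The part of these cells in the falls was not tested.

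**Figure D2:**
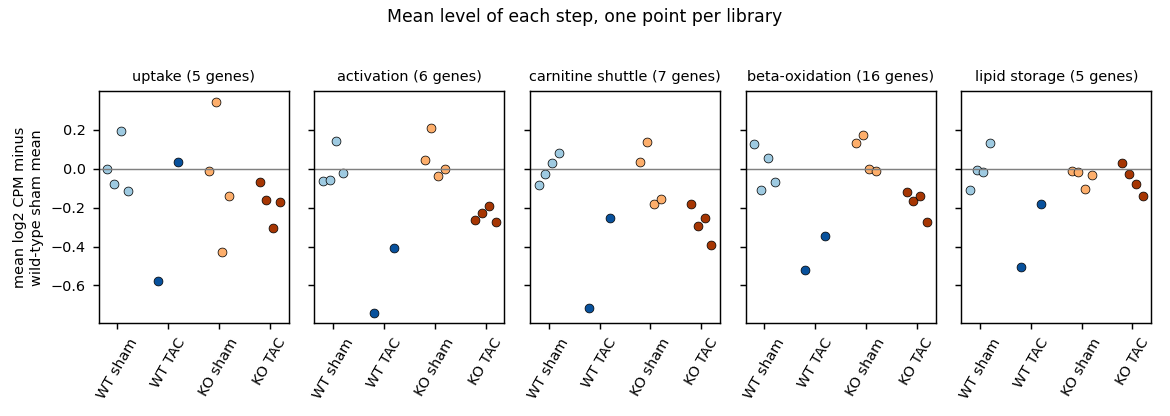
Mean log2 CPM over the genes of each step minus the wild-type sham mean (vertical axis), 1 point per library, for the 4 groups (horizontal axis). Both wild-type TAC points lie below all wild-type sham points for activation, the carnitine shuttle, beta-oxidation and lipid storage, and knockout TAC lies between -0.27 and -0.12 for beta-oxidation.

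Among the uptake genes, Fabp3, Cd36 and Lpl were abundant and had small estimates, and Slc27a1 was called lower in both genotypes. Angptl4 was weakly expressed, and its change was poorly determined. Per length (CPM per kilobase of exon, wild-type sham), Fabp3, the intracellular fatty acid binding protein of heart, was the highest of all 39 genes at 1154. Cd36, the membrane transporter that takes up long-chain fatty acids, was at 554 and Lpl, the lipase that frees them from lipoproteins, at 452. Slc27a1, the fatty acid transport protein FATP1, was at 52.0. Fabp3 shares 37.3% of its 50-base stretches with other annotated genes, mostly its pseudogene Fabp3-ps1, so its reads may be divided.

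Slc27a1 (chr8:71568882-71587302, plus strand, GRCm38 as are all positions here) was at 263, 325, 299 and 327 CPM in the wild-type sham libraries 1 to 4 and at 83.3 and 217 in wild-type TAC 1 and 2. In knockout it was at 296, 328, 254 and 229.9 CPM after sham and 169, 153, 174 and 151 after TAC. TAC and sham did not overlap in either genotype, but the library labelled wild-type TAC 1 was far below the other. The log2 fold change was -1.02 ± 0.25 (SE; adjusted p = 0.0153) in wild type and -0.78 ± 0.20 (SE; adjusted p = 0.0203) in knockout. Without that library it was -0.49 (adjusted p = 0.147) in wild type.

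Cd36 (chr5:17781690-17888801, minus strand) was at 2161, 1753, 2172 and 1867 CPM after sham and 1888 and 1765 after TAC in wild type, and at 2398, 2439, 2260.0 and 2399.7 and 2242, 2285, 1976 and 2026 in knockout. The groups overlapped between sham and TAC in both genotypes, and the log2 fold changes were -0.12 ± 0.097 (SE) and -0.16 ± 0.079 (SE), not past the threshold. Lpl (chr8:68880491-68907448, plus strand) was at 5296, 4497, 4681 and 4490.3 CPM in wild-type sham and 4404 and 4407 in wild-type TAC, and at 5168, 5206, 4869 and 5124 and 5306, 4735, 4095 and 4489 in knockout. Its estimates were -0.11 ± 0.099 (SE) and -0.13 ± 0.081 (SE), also not past the threshold, with 95% intervals of -0.30 to 0.089 in wild type and -0.29 to 0.03 in knockout. The estimates for Fabp3 were 0.19 and -0.024, and those for Angptl4, a secreted inhibitor of Lpl, 0.0082 and 0.10. None was called. The 95% intervals of Angptl4 were wide, -1.19 to 1.20 in wild type and -0.91 to 1.11 in knockout. Leaving out the library labelled wild-type TAC 1 gave wild-type estimates of -0.17 for Cd36, -0.11 for Lpl, 0.15 for Fabp3 and 0.66 for Angptl4, none called.

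Activation joins fatty acids to coenzyme A through the Acsl enzymes, and the Acot thioesterases split that bond again. Acot1 fell in both genotypes and had the largest fall of the 39 genes in wild type. Acot1 (chr12:84009490-84018371, plus strand), the cytosolic thioesterase, was at 14.7, 15.1, 20.1 and 15.7 CPM in wild-type sham and 1.92 and 5.70 in wild-type TAC. In knockout it was at 13.2, 20.9, 10.5 and 13.2 CPM after sham and 8.31, 7.44, 8.86 and 6.34 after TAC. All TAC libraries lay below all sham libraries, and the log2 fold change was -2.10 ± 0.33 (SE; adjusted p = 0.000866) in wild type and -0.90 ± 0.24 (SE; adjusted p = 0.0249) in knockout. Without the library labelled wild-type TAC 1 it was -1.52 (adjusted p = 0.0226). The gene is weakly expressed (25 to 367 counts per library) and shares 13.6% of its 50-base stretches with its mitochondrial neighbour Acot2, so the division of reads between them is uncertain.

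Acsl1 (chr8:46471037-46536051, plus strand), the main long-chain acyl-CoA synthetase of heart, was at 746, 879, 921 and 990.2 CPM in wild-type sham and 673 and 704 in wild-type TAC, below every sham library. It was at 961, 997, 929 and 856 CPM in knockout sham and 812, 881, 806 and 783 in knockout TAC, where the groups overlapped. It fell in wild type by 0.36 ± 0.10 (SE; adjusted p = 0.0279) on the log2 scale, and the estimate in knockout was -0.19 ± 0.081 (SE; adjusted p = 0.133). The wild-type call was lost in 5 of the 6 fits that left out 1 wild-type library, with -0.33 (adjusted p = 0.221) without the library labelled wild-type TAC 1. The remaining members were not called: in wild type Acsl3 and Acsl4, synthetases with other chain preferences, stood at -0.34 and -0.19, Acot2 at -0.44 and Acot13 at 0.14. These became -0.25, -0.33, -0.10 and 0.00013 without that library.

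Among the genes of the carnitine shuttle, 3 of 7 fell in wild type and none was called in knockout, against 5.3% and 6.26% of all genes. All 7 estimates were below 0 in both genotypes. Slc25a20 (chr9:108662088-108684641, plus strand), the exchanger that carries acylcarnitine across the inner mitochondrial membrane, was at 242, 209.9, 234 and 222 CPM in wild-type sham and 168 and 164 in wild-type TAC. In knockout it was at 247, 234, 212 and 219.7 CPM after sham and 211, 206, 193 and 192 after TAC. The 2 wild-type TAC libraries agreed closely and lay below all other libraries. The log2 fold change was -0.45 ± 0.082 (SE; adjusted p = 0.00213) in wild type, -0.46 (adjusted p = 0.0316) without the library labelled wild-type TAC 1, and -0.19 ± 0.066 (SE; adjusted p = 0.071) in knockout.

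Cpt2 (chr4:107903981-107923610, minus strand), which rebuilds acyl-CoA inside the matrix, was at 245, 218, 245 and 256 CPM after sham and 163 and 189.7 after TAC in wild type, and at 259, 241, 249 and 248 and 238, 226, 231 and 203 in knockout. Slc22a5 (chr11:53864542-53891660, minus strand), the plasma membrane carnitine transporter, was at 42.6, 41.4, 45.5 and 43.7 CPM after sham and 23.9 and 30.7 after TAC in wild type, and at 45.1, 52.8, 35.8 and 36.2 and 31.3, 30.6, 38.5 and 29.7 in knockout. In wild type neither gene's groups overlapped. Slc22a5 shares 26.25% of its 50-base stretches with other annotated genes, mostly Slc22a21, so its reads may be divided. Cpt2 fell by 0.45 ± 0.088 (SE; adjusted p = 0.00341) and Slc22a5 by 0.66 ± 0.16 (SE; adjusted p = 0.0115). Without the library labelled wild-type TAC 1 the values were -0.35 (adjusted p = 0.102) and -0.49 (adjusted p = 0.205).

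Cpt1b (chr15:89416405-89425863, minus strand), the muscle carnitine palmitoyltransferase that commits fatty acids to oxidation, has an uncertain level. In the GENCODE M21 annotation a readthrough gene, Gm44502, covers 81.4% of its exon bases on the same strand, and only 3 to 35 of its 76 to 413 counts per library lay in coding sequence. It was at 15.0, 19.3, 15.9 and 17.8 CPM in wild-type sham and 5.83 and 19.3 in wild-type TAC, and at 13.5, 15.6, 12.7 and 13.8 and 17.4, 10.9, 7.06 and 10.3 in knockout. The estimate in wild type was -0.44 ± 0.34 (SE; adjusted p = 0.457) and became 0.18 (adjusted p = 0.831) without the library labelled wild-type TAC 1. Cpt1a, the isoform dominant in liver, was at -0.39 and -0.30, Acacb, which makes the malonyl-CoA that inhibits Cpt1, at -0.49 and -0.22, and Mlycd, which removes malonyl-CoA, at -0.29 and -0.12 in wild type and knockout. None of these was called, and without the library labelled wild-type TAC 1 they were at -0.23, -0.35 and -0.12 in wild type.

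Beta-oxidation, the largest step, held the most calls, 9 of 16 genes in wild type and 6 of 16 in knockout, all lower. Over all genes tested, 5.3% and 6.26% were called lower. The median log2 fold change of the step in wild type was -0.37, and -0.32 without the library labelled wild-type TAC 1. In wild type 15 of the 16 genes had both TAC libraries below all sham libraries, as in 14.2% of all genes. Acadl was the exception, at -0.067 in wild type and -0.049 in knockout. The called genes span the cycle: the dehydrogenases Acadvl and Acadm for very long and medium chains, Hadha of the trifunctional protein, the short-chain hydroxyacyl dehydrogenase Hadh, the thiolase Acaa2, the auxiliary enzymes Eci1, Eci2 and Decr1 for unsaturated chains, and Etfdh, which passes electrons to ubiquinone.

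Acadm (chr3:153922357-153944632, minus strand) was at 1323, 1135, 1181 and 1145 CPM in wild-type sham and 885 and 948 in wild-type TAC. It was at 1323, 1330.3, 1327 and 1299 CPM in knockout sham and 1253, 1187, 1065 and 995 in knockout TAC. TAC lay below sham without overlap in both genotypes, with log2 fold changes of -0.38 ± 0.094 (SE; adjusted p = 0.0142) and -0.23 ± 0.076 (SE; adjusted p = 0.0563), of which only the first passed the threshold. Hadha (chr5:30118304-30155162, minus strand), at 1350.4, 1359, 1436 and 1404 CPM in wild-type sham and 947 and 1133 in wild-type TAC, was at 1527, 1511, 1448 and 1472 and 1388, 1274, 1284 and 1148 in knockout. It fell in both genotypes, by 0.42 ± 0.088 (SE; adjusted p = 0.00581) and 0.23 ± 0.071 (SE; adjusted p = 0.0469). The knockout call held in only 1 of the 8 fits that left out 1 knockout library.

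Acaa2, on chromosome 18, was at 960.4, 833, 875 and 847 CPM in wild-type sham and 479.8 and 614 in wild-type TAC, and at 956, 948, 855 and 926 and 813, 731, 681 and 624 in knockout. This was the deepest fall of a called beta-oxidation gene, -0.68 ± 0.11 (SE; adjusted p = 0.00114) in wild type and -0.37 ± 0.09 (SE; adjusted p = 0.0165) in knockout. Hadh (chr3:131233419-131272101, minus strand) was at 659, 560.5, 642 and 573 CPM in wild-type sham and 424 and 439 in wild-type TAC, and at 679, 670.2, 628 and 646 and 586, 575, 502 and 508 in knockout. Its log2 fold changes were -0.50 ± 0.09 (SE; adjusted p = 0.00195) and -0.27 ± 0.072 (SE; adjusted p = 0.0235). Decr1 (chr4:15917240-15945507, minus strand) was at 654, 510.3, 604 and 524 CPM in wild-type sham and 372 and 423 in wild-type TAC, and at 635, 631, 613 and 633 and 520.3, 502, 486 and 463 in knockout. It fell by 0.53 ± 0.098 (SE; adjusted p = 0.00243) and 0.35 ± 0.078 (SE; adjusted p = 0.011). In all 3 genes every TAC library lay below every sham library of its genotype.

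The other called genes in wild type were Eci1 (-0.54, adjusted p = 0.00273), Acadvl (-0.36, 0.0108), Eci2 (-0.32, 0.014) and Etfdh (-0.31, 0.0292). In knockout they were Etfdh (-0.31, 0.0127) and Hadhb (-0.27, 0.0332). Without the library labelled wild-type TAC 1, Hadh (-0.47 (adjusted p = 0.0444)) and Acaa2 (-0.52 (adjusted p = 0.045)) remained past the threshold. The others kept a value below 0: -0.47 for Eci1, -0.44 for Decr1, -0.33 for Acadm, -0.33 for Etfdh, -0.31 for Acadvl, -0.29 for Hadha and -0.26 for Eci2. In knockout, Decr1 and Etfdh were called whichever of the 8 knockout libraries was left out. Acaa2 and Acot1 were called in 5 of those 8 fits, Hadh and Slc27a1 in 4, and Hadha and Hadhb in 1 each. The number of called members was 2 without knockout sham 2 or without knockout TAC 4, 3 without knockout sham 1 and 4 without knockout TAC 2.

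Of the uncalled genes, Hadhb, Echs1, Etfa and Acads lay between -0.28 and -0.17 in wild type, and between -0.29 and -0.15 without the library labelled wild-type TAC 1. Etfb, which with Etfa forms the electron transfer flavoprotein, was at -0.53 (-0.59 without that library), but its count is uncertain: another gene, Gm45233, covers 53.0% of its exon bases on the same strand and held 0 counts in every library, and Etfb had 229 to 492 counts against 8666 to 15082 for Etfa. Acadvl overlaps Dvl2 on the opposite strand over 42.9% of its exon bases, and the strand setting of the counting is not given. Ucp3, a mitochondrial carrier induced by fatty acids, was at 99.9, 89.2, 126 and 92.3 CPM in wild-type sham and 23.3 and 63.3 in wild-type TAC, with 109.6, 185, 45.9 and 28.3 and 25.1, 33.5, 69.5 and 41.8 in knockout. Its estimates of -1.23 ± 0.59 (SE; adjusted p = 0.202) and -1.10 ± 0.46 (SE; adjusted p = 0.127) did not pass the threshold, and without the library labelled wild-type TAC 1 that in wild type was -0.68 (adjusted p = 0.705).

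**Figure D3:**
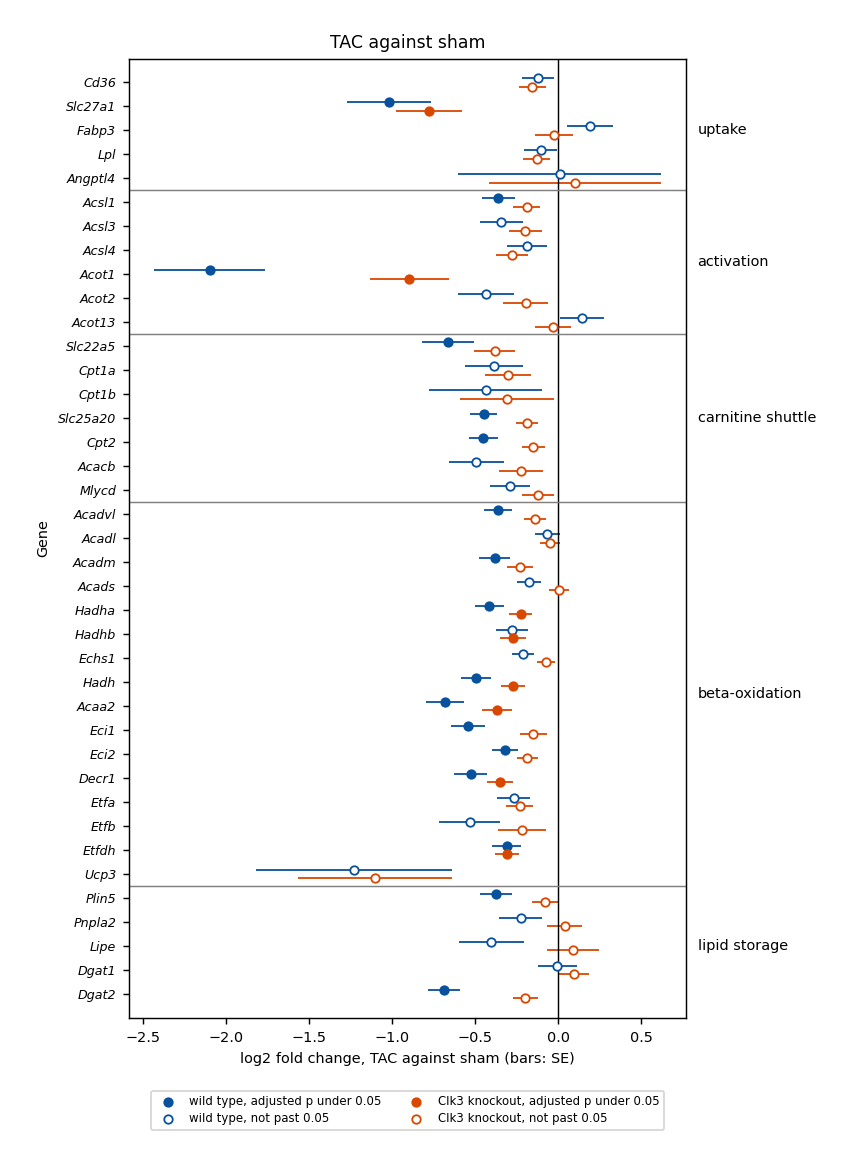
log2 fold change of TAC against sham (horizontal axis, bars are SE) for the 39 genes by step, in wild type (blue) and knockout (orange); filled points have an adjusted p under 0.05. All filled points lie below 0, 17 in wild type and 8 in knockout.

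Promoter sequences of the members were examined because many of these genes are known targets of PPAR and ERR, nuclear receptors that bind copies of the letters AGGTCA. RefSeq windows on GRCm38.p6, from 250 bases before to 50 after the start, were matched by symbol for 31 of the 39 genes (36 windows). The direct repeat AGGTCANAGGTCA was in 0 of the 36 windows and in 0.0396% of all 32851 windows, and TCAAGGTCA in 0 of 36 and 0.423% of all, on either strand. Only exact letters within these windows were searched. Both motifs are rare over all windows, so 0 of 36 cannot show that the members lack such sites. The single core AGGTCA, which both longer motifs contain and which was added after the data were seen, was in 9 of 36 windows (25%, in 8 genes) and in 16.3% of all windows. Those genes were Acadm, Acadvl, Cd36, Cpt1a, Acacb, Echs1, Plin5 and Ucp3. Printed below are the 250 bases before the start of Acadm, the dehydrogenase called lower in wild type, and of Ucp3, the only member with 2 cores; capitals mark the core or its reverse complement.
Acadm (chr3:153944644-153944893, minus strand): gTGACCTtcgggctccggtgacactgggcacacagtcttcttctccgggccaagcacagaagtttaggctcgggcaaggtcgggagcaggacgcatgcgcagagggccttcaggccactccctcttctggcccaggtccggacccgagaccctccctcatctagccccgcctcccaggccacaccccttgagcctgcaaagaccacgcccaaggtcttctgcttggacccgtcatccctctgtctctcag
Ucp3 (chr7:100472741-100472990, plus strand): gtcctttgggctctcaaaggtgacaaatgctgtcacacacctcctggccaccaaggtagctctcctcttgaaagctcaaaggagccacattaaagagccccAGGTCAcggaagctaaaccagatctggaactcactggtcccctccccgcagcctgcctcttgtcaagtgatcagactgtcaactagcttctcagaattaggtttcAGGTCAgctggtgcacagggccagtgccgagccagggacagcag

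Hadha and Hadhb encode the alpha and beta subunits of the same trifunctional enzyme and are transcribed away from each other, with RefSeq starts 273 bases apart on chromosome 5. Of the 250 bases before the Hadhb start (chr5:30155003-30155252, plus strand), 228 also lie in the 250 bases before the Hadha start. The stretch before Hadhb is 58.8% G and C, against a median of 52.4% over all windows. The log2 fold changes after TAC were -0.42 and -0.28 in wild type and -0.23 and -0.27 in knockout for Hadha and Hadhb. Hadhb shares 19.7% of its 50-base stretches with other annotated genes, mostly Gm13910, so its reads may be divided.

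Storage genes fell in wild type in 2 of 5 cases and in none of 5 in knockout, against 5.3% and 6.26% of all genes. Dgat2 (chr7:99153658-99182719, minus strand), which completes triglyceride synthesis, was at 485, 426, 449 and 462 CPM in wild-type sham and 274 and 292 in wild-type TAC. In knockout it was at 473, 451, 399 and 405 CPM after sham and 410.2, 388, 368 and 339 after TAC, where the groups overlapped. The log2 fold change was -0.69 ± 0.094 (SE; adjusted p = 0.000254) in wild type, the smallest adjusted p of the 39 genes, -0.64 (adjusted p = 0.0121) without the library labelled wild-type TAC 1, and -0.20 ± 0.075 (SE; adjusted p = 0.09) in knockout. Plin5 (chr17:56111601-56117596, minus strand), the lipid droplet coat protein of oxidative muscle, was at 159, 146, 164 and 176 CPM in wild-type sham and 116 and 133 in wild-type TAC, and at 169.7, 173, 169 and 173 and 169, 162, 178 and 139 in knockout. It fell in wild type by 0.38 ± 0.099 (SE; adjusted p = 0.0207), with -0.28 (adjusted p = 0.27) without that library, and stood at -0.079 ± 0.079 (SE; adjusted p = 0.536) in knockout. The lipases Pnpla2 and Lipe and the isoenzyme Dgat1 were at -0.23, -0.40 and -0.0052 in wild type and at 0.038, 0.09 and 0.092 in knockout, none of them called. In wild type they were at -0.049, -0.069 and 0.085 when that library was left out.

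**Figure D4:**
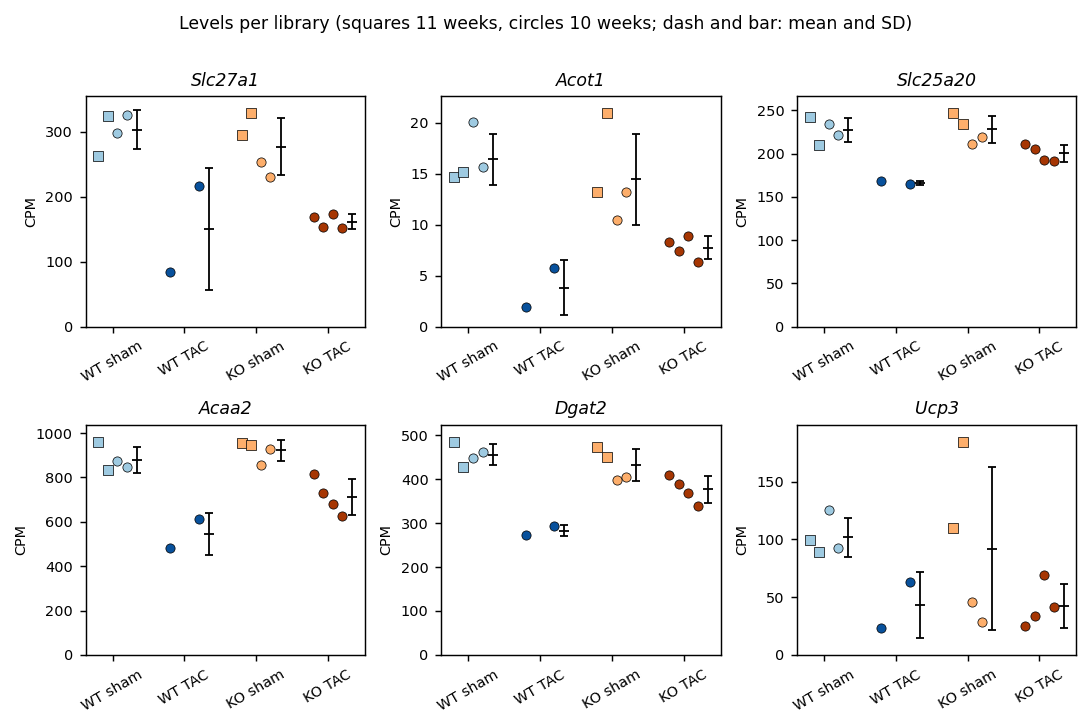
CPM per library (vertical axis, from 0) of 6 genes in the 4 groups; squares are mice of 11 weeks, circles mice of 10 weeks, and the dash with its bar is the mean ± SD. TAC points lie below the sham points of the same genotype for Slc27a1, Acot1, Slc25a20 and Acaa2, and the Ucp3 points of knockout sham split by age.

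Between genotypes in sham hearts, 0 of the 39 genes were called, against 0.888% of all genes in either direction. An unadjusted p under 0.05 was reached by 5 of the 39 and by 18% of all genes tested, and all 5 were higher in knockout: Cd36 (0.26, adjusted p = 0.116), Acot13 (0.24, 0.262), Hadhb (0.25, 0.125), Etfa (0.19, 0.221) and Etfdh (0.25, 0.0957). DESeq2 called 2 of the 39 (Cd36 and Etfdh), and edgeR called 3 without wild-type sham 1 (Hadhb, Etfa and Etfdh). The share of all genes called in those fits is not given here.

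Sham libraries also differed by age within the knockout group. In 23 of the 39 genes both 11-week knockout libraries were above both 10-week ones, and in 2 genes below, against 18.6% and 18.7% of all genes tested. In wild-type sham the counts were 0 and 7, against 12.1% and 12.6%. Ucp3 averaged 147 CPM at 11 weeks and 37.1 at 10 weeks in knockout, against 94.5 and 109 in wild type. Cpt1a averaged 92.8 and 61.9 CPM in knockout. Angptl4 was at 9.22 and 28.0 CPM in the 11-week knockout libraries 1 and 2 and at 2.89 and 7.74 in the 10-week libraries 3 and 4, so libraries 1 and 4 were close. With 2 libraries of each age these differences were not tested, and age cannot be told apart from anything else that set the pairs apart.

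After TAC, the knockout level was higher than the wild-type level for 1 of the 39 genes, Dgat2 (0.41 ± 0.093 on the log2 scale, SE; adjusted p = 0.0405), against 0.377% of all genes called higher. The median over the 39 genes was 0.25, against 0.0015 over all genes tested. In 23 genes, among them 14 of the 16 beta-oxidation genes, all 4 knockout TAC libraries lay above both wild-type TAC libraries, as in 11% of all genes. An unadjusted p under 0.05 was reached by 23 of the 39 genes and 14.8% of all genes, and without the library labelled wild-type TAC 1 by 11 of the 39 and 12.4% of all. The next smallest adjusted p-values belonged to Cpt2 (0.35, 0.0615), Eci1 (0.39, 0.0678) and Plin5 (0.38, 0.0689). Acot1 had the largest estimate, 1.01 ± 0.34 (SE; adjusted p = 0.166).

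The Dgat2 call was lost in most alternatives. Without the library labelled wild-type TAC 1, Dgat2 was at 0.36 (adjusted p = 0.245) and 0 of the 39 genes were called, against 0.284% of the genes then tested in either direction. Leaving out 1 knockout TAC library at a time gave 0 to 4 called genes, DESeq2 gave 9 and the fit without a low-count filter gave 5. The shares of all genes called in these fits are not given here, so the counts describe the fits and not the members. Some estimates, none of them called with the library labelled wild-type TAC 1, went from above to below 0 without it. They were those of Slc27a1 (0.11 to -0.42), Acot2 (0.14 to -0.19), Cpt1a (0.037 to -0.12) and Lipe (0.21 to -0.12). The median over the 39 genes was then 0.20.

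**Figure D5:**
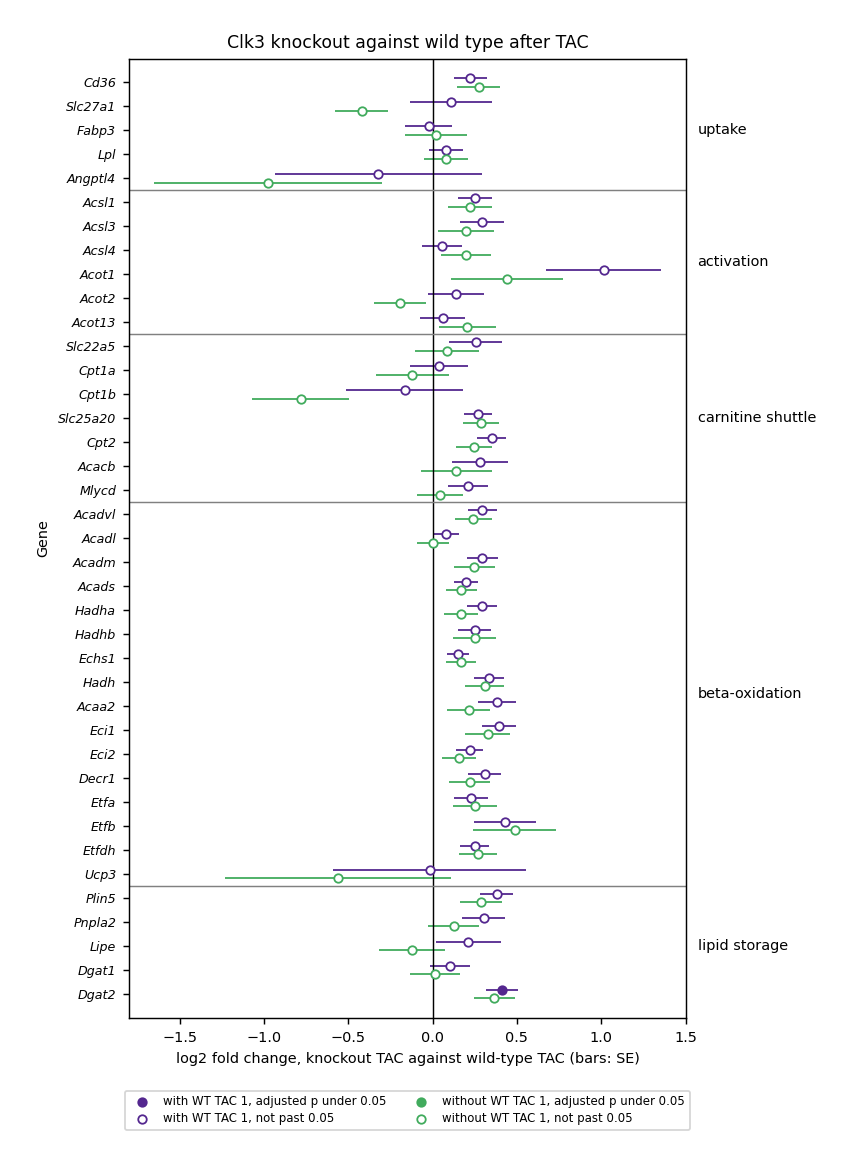
log2 fold change of knockout TAC against wild-type TAC (horizontal axis, bars are SE) with both wild-type TAC libraries (purple) and without the library labelled wild-type TAC 1 (green). Dgat2 is the only filled point, and without that library no point is filled.

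Whether TAC changed these genes differently in the genotypes is answered by the interaction, and 0 of the 39 genes were called (edgeR; 0.0192% of all genes tested were). Dgat2 had the smallest p (0.49, unadjusted p = 0.000899, adjusted p = 0.303). The unadjusted p was under 0.05 for 7 genes (6.53% of all genes), and for 2 without the library labelled wild-type TAC 1 (5.82% of all). With both libraries 34 of the 39 estimates were above 0, with a median of 0.17. DESeq2 called 1 of the 39, Dgat2, and the share of all genes called in that fit is not given here. The median without wild-type TAC 1 was 0.074. It was 0.26 without wild-type TAC 2, a fit that rests on the library labelled wild-type TAC 1 alone. The falls called in wild type alone are therefore not shown to be particular to wild type.

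Related fatty acid genes outside the 39 were examined too. Among 30 other genes of the pathway, 29 were tested. In wild type 5 were called lower and 2 higher, against 5.3% and 6.91% of all genes tested. The smallest p belonged to Crat, the matrix carnitine acetyltransferase (-0.44 ± 0.094, adjusted p = 0.00585), Lpin1, a phosphatidate phosphatase (-0.48 ± 0.11, adjusted p = 0.00732), Acot9 (0.43 ± 0.12, adjusted p = 0.0305) and Hsd17b10 (-0.37 ± 0.11, adjusted p = 0.032). In knockout 3 were lower and 3 higher, against 6.26% and 6.73% of all genes tested. The smallest p there belonged to Acsl5 (0.44 ± 0.096, adjusted p = 0.00961), the uncoupling protein gene Ucp2 (0.53 ± 0.12, adjusted p = 0.0131), Fabp5 (0.42 ± 0.098, adjusted p = 0.014) and Acad10 (-0.69 ± 0.17, adjusted p = 0.0149). Median log2 fold changes over the 29 were -0.16 and -0.068. Without the library labelled wild-type TAC 1, a fit that rests on 1 wild-type TAC library, the wild-type median was -0.25. Lpin1 was then at -0.53, Hsd17b10 at -0.40, Crat at -0.31 and Acot9 at 0.28. The wild-type calls above use both libraries.

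Peroxisomes shorten very long chains, and of 20 genes of that pathway 17 were tested. In wild type 3 fell, against 5.3% of all genes called lower. Among them were Abcd3, a transporter of the peroxisomal membrane (-0.46 ± 0.11, adjusted p = 0.0137), and Pex11a, which acts in peroxisome division (-0.52 ± 0.14, adjusted p = 0.0235). In knockout 2 fell, against 6.26% of all genes: Abcd2 (-0.54 ± 0.13, adjusted p = 0.0145) and Abcd3 (-0.35 ± 0.09, adjusted p = 0.0198). The median over the 17 was -0.070 in wild type and -0.074 in knockout. Without the library labelled wild-type TAC 1, a fit that rests on 1 wild-type TAC library, the wild-type median was -0.17. Abcd3 was then at -0.43 and Pex11a at -0.38.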

How the data were processed

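The authors deposited raw integer counts, 1 value per gene, in columns that the file headers split into coding and untranslated parts and ambiguous reads. The submitters' processing notes name STAR 2.4.2a, Picard 2.10.3, bcl2fastq 2.17.1.14 and the mouse builds mm10 and GRCm38; the sources used here do not give the counting annotation or strand setting. Symbols, positions and exon lengths came from GENCODE M21 on GRCm38 (51719 of 51912 identifiers found). Reads in no feature (15.3% ± 2.42, SD, n = 14) and ambiguous reads (1.52% ± 0.048) were left out.

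All 14 libraries entered 1 edgeR 4.0.16 quasi-likelihood fit (R 4.3.3) with a coefficient per group, TMM factors and filterByExpr (minimum count 10). In each of 5 comparisons p-values were adjusted over 15651 genes by Benjamini-Hochberg, with a threshold of 0.05. The biological coefficient of variation was 11.8%. The scripts were tested on simulated data. Within groups every pair of libraries differed beyond sampling noise (chi-square at least 3.21 times its degrees of freedom), so none was merged. Levels per length are CPM per kilobase of exon. Alternatives were DESeq2 1.42.0, RLE factors, no filter, coding counts alone, only the compared groups, age or a clock score as covariate, 10-week libraries alone, and leaving out libraries.

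The members and lists were chosen with earlier results of these data known. Every member is accounted for. Values per library are given for Cd36, Lpl, Acsl1, Cpt1b, Acadm, Hadha and Plin5 and for up to 3 members per step with the smallest p among those called, and for Ucp3, chosen after its values were seen. One gene of a comparison list is counted but not reported here by name.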

Additional observations from a re-analysis of the deposited data

Results flagged for a closer look

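In 5 of 117 sets of 4 libraries (39 genes in 3 groups), 1 library lay farther from the others than Dixon's 95% limit allows, and chance alone gives about 1 in 20. Cpt1a was lowest in wild-type sham 1 at 72.4 CPM, against 82.2 to 82.8 in the other 3. It was highest in knockout TAC 3 at 70.8 CPM. Lipe was highest in knockout sham 2 at 66.0 CPM and Dgat1 in wild-type sham 4 at 30.5 CPM. Acsl3 was lowest in knockout sham 1 at 10.2 CPM. None of these genes was called in any of the 5 comparisons.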

How the results depend on the processing

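Counts of called members moved with the libraries, covariates and tool used. For most of these fits the share of all genes called is not given here, so a moved count is not a result about the members. For TAC in wild type (17), the fit of only the groups compared gave 9 and the clock score 5, and leaving out 1 library gave 5 to 19. For TAC in knockout (8), DESeq2 gave 13, and the 10-week libraries alone, age as a covariate and the clock score each gave 0. Leaving out 1 library gave 2 to 9. In sham hearts (0), DESeq2 gave 2 and leaving out 1 library 0 to 3. Knockout against wild type after TAC (1) gave 9 with DESeq2, 5 with no low-count filter, and 0 with only the groups compared, with 10-week libraries alone, with the clock score, and without knockout sham 4 and knockout TAC 3 together, an alternative added after seeing the data. Leaving out 1 library gave 0 to 5. The interaction (0) gave 1 with DESeq2 and 0 to 1 with 1 library left out. Fits on fewer samples have less power, and for the other alternatives the cause was not tested. The estimate for Cpt1b after TAC in wild type ranged from -1.54 to 0.18 with 1 library left out. Of the values for single genes under the alternatives, 432 kept direction and side of the threshold, 116 lost the call, 4 gained it and 1 reversed. No paired analysis was possible because the labels give no replicate numbers. Wild-type TAC has 2 libraries, so its spread is known mainly from the other groups. The library labelled wild-type TAC 1 goes against its label in Clk3 and Gm8730, and its genotype was not tested. The low counts of Acot1 and Cpt1b limit their precision.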
